A study of Mus musculus with 6 samples.

Results

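Desmosomes and the simple keratins anchored to them were followed in cultured mesenchymal cells of the mouse small intestine through 10 genes, out of 23329 with a row in the count tables. The 6 desmosome genes were Dsp, Jup, Pkp2, Pkp4, Dsg2 and Dsc2, and the 4 keratin genes were Krt7, Krt8, Krt18 and Krt19. The set was selected on the difference of 1 gene, Dsp, which is lower in the adult than in the embryonic cultures, and the others were added because they encode parts of the same structure. The difference of Dsp is therefore given as a description with no test, and the question put to the other 9 genes is whether they follow Dsp from library to library. The study grew primary cells from the small intestine of C57 mice, 3 cultures from adults and 3 from embryos at embryonic day 14.5 (E14.5). In both groups the epithelium was chelated away and the remaining wall was digested with collagenase and dispase, but only the adult gut had its villi scraped off, and only the embryonic gut was cut up small. All cultures were kept in serum with the compound Y27632 and gave RNA at passage 2 or 3. No sort or gate was named. Whether the 3 cultures of 1 stage derive from different mice is not labelled, so p-values measure the spread between these cultures, which may be partly technical.

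A desmosome is a button-like junction that ties the intermediate filaments of one cell to those of the next. Desmogleins and desmocollins are cadherins that bridge the gap, the armadillo proteins plakoglobin and plakophilins gather under the membrane, and desmoplakin links this plaque to the filaments. In simple epithelia and mesothelium those filaments are built from pairs of one type I and one type II keratin, usually KRT18 or KRT19 with KRT8 or KRT7. Mesenchymal cells such as fibroblasts and smooth muscle mostly carry vimentin or desmin filaments and adherens junctions instead, although plakoglobin is shared by both kinds of junction.

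Gene totals were 18850224 to 29903594 counts in the adult and 30430596 to 32672370 counts in the E14.5 libraries. Markers of several other cell types varied between the cultures. Epithelial markers summed to 5.49 to 10.1 CPM (counts scaled to a common library size) in adult and 8.38 to 19.6 CPM in E14.5 libraries. St14, a membrane protease gene, made up 2.88 to 4.62 CPM of this sum in adult and 5.88 to 17.7 CPM in E14.5 libraries, and Spint1, a protease inhibitor gene, 1.33 to 4.27 CPM in adult and 1.09 to 2.22 CPM in E14.5 libraries. Of 14 such genes with a row, 4 (Cdx2, Fabp1, Fabp2 and Tff3) had 0 counts in every library, which allows up to 0.0927 to 0.149 CPM, the worth of 3 counts (counting error only). Epcam, which encodes the epithelial adhesion molecule, measured 0.0993 to 0.141 CPM in adult and 0.0618 to 0.124 CPM in E14.5 libraries, and Vil1, the villin gene, measured 0 to 0.497 CPM in adult and 0 to 0.0313 CPM in E14.5 libraries. The 8 mesothelial markers with a row, none of them at 0, led by Upk3b and Upk1b, came to a sum of 1632, 681 and 857 CPM for adult replicates 1, 2 and 3, and of 158, 808 and 153 CPM for E14.5 replicates 1, 2 and 3. Blood endothelial markers, led by Emcn and Pecam1, summed to 28.6, 1924 and 420.5 CPM in the adult libraries and to 11.5 to 36.3 CPM in the E14.5 libraries. The sum over leukocyte markers, led by Lyz2 and Csf1r, was 23.1 to 182 CPM among adult libraries, and for E14.5 replicates 1, 2 and 3 it was 196, 385 and 2312 CPM. The mesenchymal label fitted the smooth muscle markers, led by Acta2 and Tagln, which summed to 18370 to 29010 CPM in adult and 23120 to 33890 CPM in E14.5 libraries, and the fibroblast markers, led by Col1a1 and Col1a2, which summed to 9442 to 17380 CPM in adult and 9007 to 21310 CPM in E14.5 libraries. These are bulk cultures, in which fewer cells of a type and less RNA per cell cannot be told apart.

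Dsp encodes desmoplakin, the plakin that couples the desmosomal plaque to intermediate filaments. It lies on the plus strand of chromosome 13 of mm10 from 38151294 to 38198577. Its level, in CPM on TMM-scaled library sizes, was 4.43, 8.24 and 3.97 in adult replicates 1, 2 and 3, against 181, 67.1 and 74.6 in E14.5 replicates 1, 2 and 3. The lowest E14.5 library thus lay far above the highest adult library, and E14.5 replicate 1 stood highest of all. The means were 5.55 ± 2.35 CPM in adult and 107.7 ± 64.0 CPM in E14.5 cultures (SD, n = 3 each). The log2 fold change, adult over E14.5, was -4.29 (SE 0.54), a level 19.5-fold lower in adult cultures. Adult cultures were not without the transcript, with 117, 166 and 113 counts in adult and 5803, 2161 and 2413 counts in E14.5 libraries. Each sample title opens with a prefix of unstated meaning, carried by 1 adult and 1 E14.5 library. Within these prefixes (5_28, 5_8 and 9_6) the log2 difference in Dsp, adult minus E14.5, was -5.33, -3.01 and -4.21.

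The start of Dsp is shown because it is the gene on which the set was chosen. The window runs from 250 bases before to 50 after the annotated start, at chr13:38151044-38151343 on the plus strand (RefSeq, GRCm38.p6). Capitals mark CAGGTG or its reverse complement CACCTG, the E2-box letters that repressors of the Snail and Zeb families are known to bind, and TATAA or its reverse complement TTATA, the TATA letters.
Dsp: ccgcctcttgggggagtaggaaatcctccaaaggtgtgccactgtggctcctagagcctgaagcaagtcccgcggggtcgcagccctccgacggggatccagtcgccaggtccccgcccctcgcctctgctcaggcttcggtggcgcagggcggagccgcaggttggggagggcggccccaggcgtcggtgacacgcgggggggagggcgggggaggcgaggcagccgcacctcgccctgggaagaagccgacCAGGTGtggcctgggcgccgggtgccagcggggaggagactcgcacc
The window held 1 E2-box, at base 4 after the start, and no TATA letters. Of 32851 mouse windows of the same length, 20.2% held an E2-box and 24.9% held the TATA letters, searched on both strands. Such a match is a run of letters, and binding was not measured here.

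Genes with a profile close to that of Dsp were found by the root-mean-square distance between log2 CPM profiles over the 6 libraries, each centred on its own mean. The profiles were not scaled to a common spread, so closeness to Dsp largely reflects a similar stage difference, on which Dsp was chosen. Of 8472 other tested genes with a mean of at least 10 CPM and a proper gene name, the nearest were Fbn2 at a distance of 0.58, Igf2bp3 at 0.61, Cdh6 at 0.74, Epha7 at 0.80 and Fgf13 at 0.81. Fbn2, for the microfibril protein fibrillin 2, measured 14.4, 9.78 and 9.11 CPM in adult and 243, 71.5 and 163 CPM in E14.5 libraries. Cdh6, a classical cadherin gene, measured 2.16, 6.56 and 2.95 CPM in adult and 64.5, 11.7 and 40.3 CPM in E14.5 libraries.

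Dsg2 and Dsc2, the genes of the desmosomal cadherins desmoglein 2 and desmocollin 2 that occur in most tissues with desmosomes, were barely expressed in either group. Dsg2 lies on the plus strand of chromosome 18 from 20558074 to 20604521, and Dsc2 on the minus strand from 20030633 to 20059554, 498520 bases away. Dsg2 had 22, 14 and 8 counts in adult replicates 1, 2 and 3 and 118, 66 and 60 counts in E14.5 replicates 1, 2 and 3. In CPM this was 0.833, 0.695 and 0.281 in adult and 3.69, 2.05 and 1.85 in E14.5 libraries, without overlap between the groups. With a log2 fold change of -2.07 (SE 0.54) and an adjusted p of 0.129 in edgeR, Dsg2 did not pass the threshold of 0.05.

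Dsc2 had 3, 9 and 3 counts in adult and 50, 18 and 47 counts in E14.5 libraries, so in 2 adult libraries it sat at the 3 counts taken as the limit of detection. Its levels were 0.114, 0.447 and 0.106 CPM in adult and 1.56, 0.559 and 1.45 CPM in E14.5 libraries, again without overlap, though adult replicate 2 and E14.5 replicate 2 came close. Summed over each group and corrected for depth, the adult count was 0.168 of the E14.5 count, with an exact 95% interval of 0.0911 to 0.289 for counting error only. In edgeR the fitted log2 fold change of -2.46 (SE 0.73) had an adjusted p of 0.156. The minimum for testing had to be reached in 3 libraries. All 3 E14.5 libraries reached it for both cadherin genes, against 2 adult libraries for Dsg2 and 1 for Dsc2, so the entry of both into the test rested on the group where they were higher.

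Jup, Pkp2 and Pkp4 encode the armadillo proteins of the plaque, and they were the well-expressed part of the set. Jup, on the minus strand of chromosome 11 from 100368958 to 100397763, encodes plakoglobin, which also serves adherens junctions. It measured 385, 211 and 300 CPM in adult and 490, 482 and 332 CPM in E14.5 libraries. Adult replicate 1 lay above E14.5 replicate 3, so the groups overlapped, and the log2 fold change of -0.54 (SE 0.26, adjusted p = 0.359, edgeR) did not pass the test.

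Pkp2, on the plus strand of chromosome 16 from 16213318 to 16272712, encodes plakophilin 2, the plakophilin of simple epithelia and of the heart. It measured 84.2, 71.5 and 83.3 CPM in adult and 129, 97.6 and 87.2 CPM in E14.5 libraries. All adult libraries lay below all E14.5 libraries, by a narrow margin, with a log2 fold change of -0.39 (SE 0.17, adjusted p = 0.301, edgeR). Pkp4, on the plus strand of chromosome 2 from 59160850 to 59355208, encodes a plakophilin relative known from both adherens junctions and desmosomes. It measured 69.2, 86.8 and 82.1 CPM in adult and 63.0, 56.5 and 60.1 CPM in E14.5 libraries, the opposite order from the other desmosome genes. Here every adult library was above every E14.5 library, with a log2 fold change of 0.41 (SE 0.12, adjusted p = 0.157, edgeR).

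**Figure D1:**
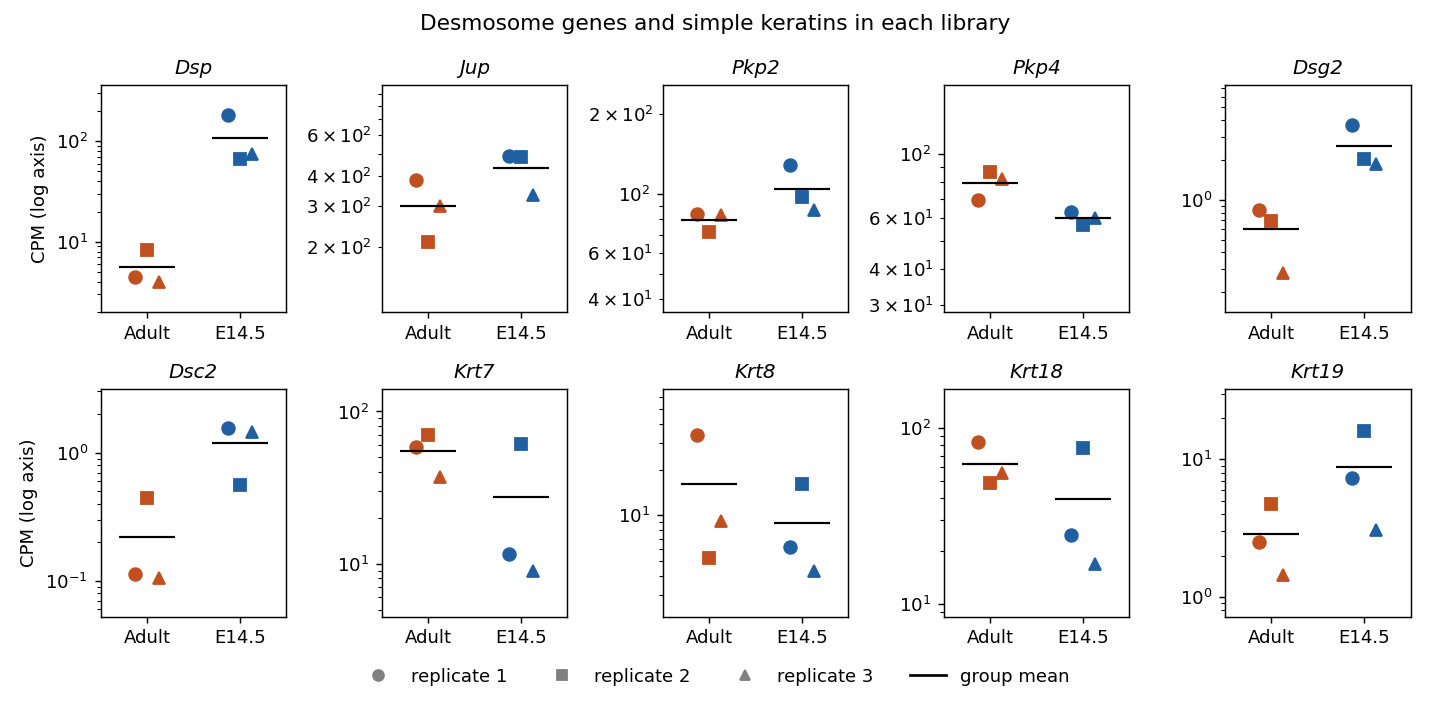
Level of each of the 10 genes in every library, in CPM on log axes that differ between panels, with the adult group (orange) left of the E14.5 group (blue), a symbol for each replicate and a line at the group mean. The adult and E14.5 points of Dsp are widely apart, whereas in the 4 keratin panels E14.5 replicate 2 (square) stands above the other E14.5 libraries.

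Desmosome genes differed widely in amount. Per kilobase of exon, adult means were 92.7 CPM for Jup, 27.3 for Pkp2, 16.6 for Pkp4, 0.579 for Dsp, 0.0730 for Dsg2 and 0.0480 for Dsc2. In E14.5 cultures the means per kilobase were 134.9 CPM for Jup, 35.8 for Pkp2, 12.6 for Pkp4, 11.2 for Dsp, 0.306 for Dsg2 and 0.257 for Dsc2. The E14.5 ranges of Dsp (6.99 to 18.9 CPM per kilobase) and Pkp4 (11.9 to 13.2) overlapped, as did those of Dsg2 and Dsc2. The ratio of Dsp to Pkp2 within a library, not corrected for length, was 0.0526, 0.115 and 0.0477 in adult and 1.41, 0.687 and 0.855 in E14.5 libraries.

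Among the 9 genes other than Dsp, all of which entered the test, 0 passed in edgeR. Over all 13478 genes tested, 1.08% passed in either direction and 0.245% passed with a lower level in adult cultures. An unadjusted p under 0.05 was found for 3 of the 9 (Dsg2, Dsc2 and Pkp4) and for 17.9% of all tested genes, a share to be set beside every such count given here for other lists. DESeq2 called 1 of the 9, Dsg2 (adjusted p = 0.0108), in a fit that called 10.6% of all genes, and limma-voom called 0 (3 at an unadjusted p under 0.05). Of these 9 genes, 3 had lower adult levels without overlap between the groups (Pkp2, Dsg2 and Dsc2), 1 had higher adult levels without overlap (Pkp4), and 5 overlapped. Over all tested genes, 12.1% had lower and 12.0% had higher adult levels without overlap. Dsg2 and Dsc2 entered the test only through the E14.5 libraries. Their place among the small p-values, the DESeq2 call and the genes without overlap was therefore partly fixed by the filter. Of the 7 genes that reached the minimum in every library, only Pkp4 had an unadjusted p under 0.05 in edgeR, and DESeq2 called none. Of these 7, 1 was lower without overlap, 1 was higher without overlap, and 5 overlapped. The median log2 fold change of the 4 keratins, which are among these 7, was 0.76, against -0.01 over all tested genes. Their single values ran from -1.62 for Krt19 to 1.01 for Krt7, and in all 4 the groups overlapped.

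Krt8 and Krt18 encode the first keratin pair of the embryo and of simple epithelia. They are neighbours on chromosome 15, with Krt8 on the minus strand from 101996698 to 102004482 and Krt18 on the plus strand from 102028180 to 102032027, so that their starts face away from each other over 23698 bases. Krt8 measured 33.8, 5.26 and 9.21 CPM in adult replicates 1, 2 and 3 and 6.22, 16.1 and 4.33 CPM in E14.5 replicates 1, 2 and 3. Krt18 measured 83.7, 48.5 and 55.3 CPM in adult and 24.6, 77.5 and 16.9 CPM in E14.5 libraries. In both genes adult replicate 1 was the highest library of the 6, E14.5 replicate 2 was the highest of its group, and E14.5 replicate 3 the lowest of all. The log2 fold changes were 0.86 for Krt8 (SE 0.81, adjusted p = 0.673) and 0.66 for Krt18 (SE 0.58, adjusted p = 0.646, edgeR), within the spread between cultures. The Krt8 value rested on adult replicate 1, without which it was -0.29 (SE 0.65).

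The starts of the pair are shown because the genes are neighbours and form a known keratin pair. Capitals mark E2-box and TATA letters as for Dsp, in windows of 250 bases before to 50 after the annotated start (RefSeq, GRCm38.p6), at chr15:102004293-102004592 on the minus strand for Krt8 and chr15:102027966-102028265 on the plus strand for Krt18. For both genes this RefSeq start differs from the start in the positions given above, which come from GENCODE, and motif positions count from the RefSeq start.
Krt8: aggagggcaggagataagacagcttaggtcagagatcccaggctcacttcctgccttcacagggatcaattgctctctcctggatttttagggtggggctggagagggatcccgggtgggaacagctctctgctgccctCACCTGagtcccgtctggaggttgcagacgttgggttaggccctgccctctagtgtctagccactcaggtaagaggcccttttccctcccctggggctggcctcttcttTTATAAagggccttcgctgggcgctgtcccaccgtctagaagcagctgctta
Krt18: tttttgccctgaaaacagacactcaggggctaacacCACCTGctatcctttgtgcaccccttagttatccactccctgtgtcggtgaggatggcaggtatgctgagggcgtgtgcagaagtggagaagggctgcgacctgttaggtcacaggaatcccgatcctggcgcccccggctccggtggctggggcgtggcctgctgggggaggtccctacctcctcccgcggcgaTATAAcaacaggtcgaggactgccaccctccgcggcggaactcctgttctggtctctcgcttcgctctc
The Krt8 window held 1 E2-box, at base -111 from the start, and TATA letters that read on both strands from base -2. The Krt18 window held 1 E2-box at base -214 and TATA letters at base -19. Among windows not shown, those of Krt7 and 1 start of Pkp4 also held an E2-box. Those of Jup and of the other Pkp4 start held none. Windows were found for 6 of the 10 genes. The chromosome that carries Dsg2 and Dsc2 was left out of this search, so their starts were not looked at.

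By profile, Krt18 was the 77th nearest of 13477 other tested genes to Krt8, and Krt8 the 517th nearest to Krt18. Krt7 lay nearer to Krt18 than Krt8 did, at a distance of 0.51, against 0.58 for Krt8. The ratio of Krt18 to Krt8, in CPM not corrected for length, was 2.48, 9.22 and 6.01 in the adult libraries and 3.96, 4.80 and 3.90 in the E14.5 libraries. The pair thus kept a nearly constant ratio among the E14.5 cultures while the levels of both genes varied, and a variable ratio among the adult cultures.

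Krt7, on the plus strand of chromosome 15 from 101411043 to 101430313, encodes a type II keratin of ducts and mesothelium. It measured 58.3, 70.1 and 37.0 CPM in adult and 11.6, 61.3 and 8.99 CPM in E14.5 libraries. E14.5 replicate 2 lay within the adult range and the other E14.5 libraries below it. Krt7 had a log2 fold change of 1.01 (SE 0.76, adjusted p = 0.570, edgeR), and without E14.5 replicate 2 it was 2.42 (SE 0.32, adjusted p = 0.031, edgeR), in a fit that called 3.42% of all genes. Krt19, on the minus strand of chromosome 11 from 100140810 to 100148665, encodes a small type I keratin. It had the opposite sign from the other keratins, with 2.499, 4.72 and 1.44 CPM in adult and 7.32, 16.2 and 3.09 CPM in E14.5 libraries. Adult replicate 2 was above E14.5 replicate 3, with a log2 fold change of -1.62 (SE 0.71, adjusted p = 0.305, edgeR). Without E14.5 replicate 2 it was -0.86.

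**Figure D2:**
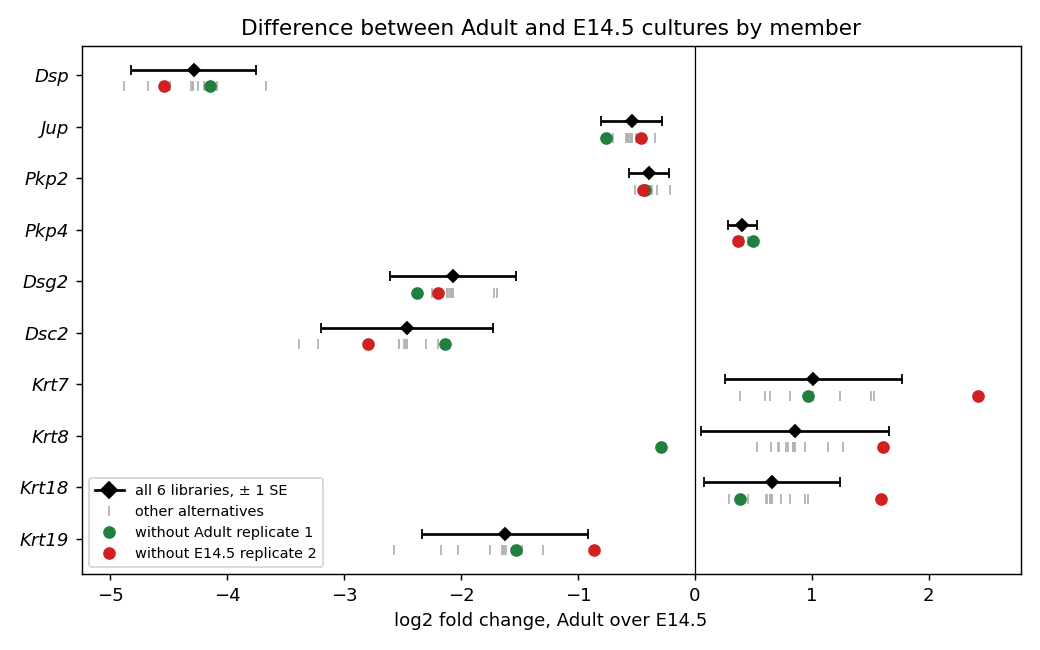
Log2 fold change, adult over E14.5, of each of the 10 genes with all 6 libraries (black diamond, bar of 1 SE) and under 16 alternatives (15 for Dsc2), of which leaving out adult replicate 1 (green) and E14.5 replicate 2 (red) are coloured. Desmosome genes kept their side of 0 in all of these fits, Krt7 and Krt18 moved to 2.42 and 1.59 without E14.5 replicate 2, and Krt8 crossed 0 without adult replicate 1.

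Within the set, the 4 keratins and the 6 desmosome genes peaked in different embryonic cultures. All 6 desmosome genes were highest in E14.5 replicate 1 among the E14.5 libraries, and all 4 keratins were highest in E14.5 replicate 2. The lead of replicate 1 was narrow for Jup (490 against 482 CPM in replicate 2), Dsc2 and Pkp4. Outside the set the split did not hold. Of the tested genes there, Perp, Pkp1 and Pkp3 were highest in E14.5 replicate 2. Krt20 was highest in E14.5 replicate 1, and Krt10, Krt14 and Krt80 in E14.5 replicate 2. Measured by distance to the Dsp profile among 13477 other tested genes, Dsc2 ranked 86th, Dsg2 113th, Krt19 496th, Jup 1310th and Pkp2 1570th. Pkp4 ranked 10298th, Krt8 12483rd, Krt18 12522nd and Krt7 12964th. These ranks largely restate the direction and size of each gene's stage difference. Dsc2 and Dsg2 also entered the test only through the E14.5 libraries, so their ranks are a description only. Dsc2 had the same order of the 6 libraries as Dsp, although with 3 counts in each of 2 adult libraries the order of those libraries is not resolved. Dsg2 followed Dsp in its 3 high and 3 low libraries but not in the order within the groups.

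**Figure D3:**
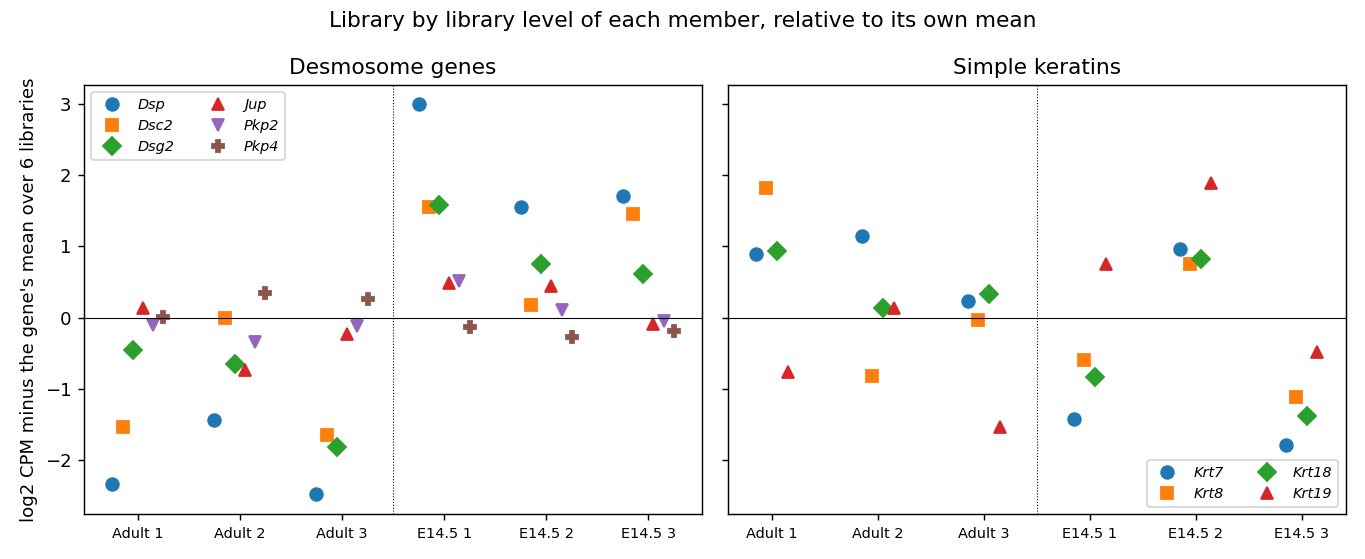
Log2 CPM of each gene minus its own mean over the 6 libraries, for the desmosome genes (left) and the keratins (right), with the adult libraries left of the E14.5 libraries in each panel. Dsp, Dsc2 and Dsg2 stand high in the E14.5 libraries, with Dsc2 in E14.5 replicate 2 near its mean, whereas Krt7, Krt8 and Krt18 stand above their means in E14.5 replicate 2 and below them in E14.5 replicates 1 and 3.

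Mesothelial markers peaked in the same E14.5 culture as the 4 keratins of the set. Mesothelium, the sheet that covers the outer gut wall, is known to contain simple keratins. Of the 8 mesothelial markers, all were highest in E14.5 replicate 2 among the E14.5 libraries, and 6 of 8 were highest in adult replicate 1 among the adult libraries. Of the 4 keratins, 2 (Krt8 and Krt18) were highest in adult replicate 1 among the adult libraries. The other 2 (Krt7 and Krt19) were highest in adult replicate 2, which had the lowest adult sum of mesothelial markers. All 8 were tested and 0 passed in edgeR (3 at an unadjusted p under 0.05). Upk3b, a uroplakin gene typical of mesothelium, measured 577, 141 and 317 CPM in adult and 37.9, 216 and 25.6 CPM in E14.5 replicates 1, 2 and 3. The 4 keratins summed to 178, 129 and 103 CPM in the adult libraries and to 49.8, 171 and 33.3 CPM in the E14.5 libraries. As a share of the summed mesothelial markers, Krt7 made 3.57%, 10.3% and 4.31% in the adult and 7.34%, 7.58% and 5.88% in the E14.5 libraries, and Krt8 made 2.07%, 0.773% and 1.08% in the adult and 3.94%, 1.996% and 2.83% in the E14.5 libraries. The groups overlapped in both of these shares. Krt18 made 5.13%, 7.12% and 6.46% in the adult and 15.6%, 9.58% and 11.04% in the E14.5 libraries, and Krt19 made 0.153%, 0.693% and 0.168% in the adult and 4.63%, 2.004% and 2.02% in the E14.5 libraries. For Krt18 and Krt19 the adult shares were all below the E14.5 shares. The marker sum itself leaned to the adult side, with a positive log2 fold change in all 8 markers (median 1.94). A lower share is thus not a lower level, and the log2 fold change of Krt18 itself was 0.66. The part of mesothelial cells in the keratin levels was not tested.

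**Figure D4:**
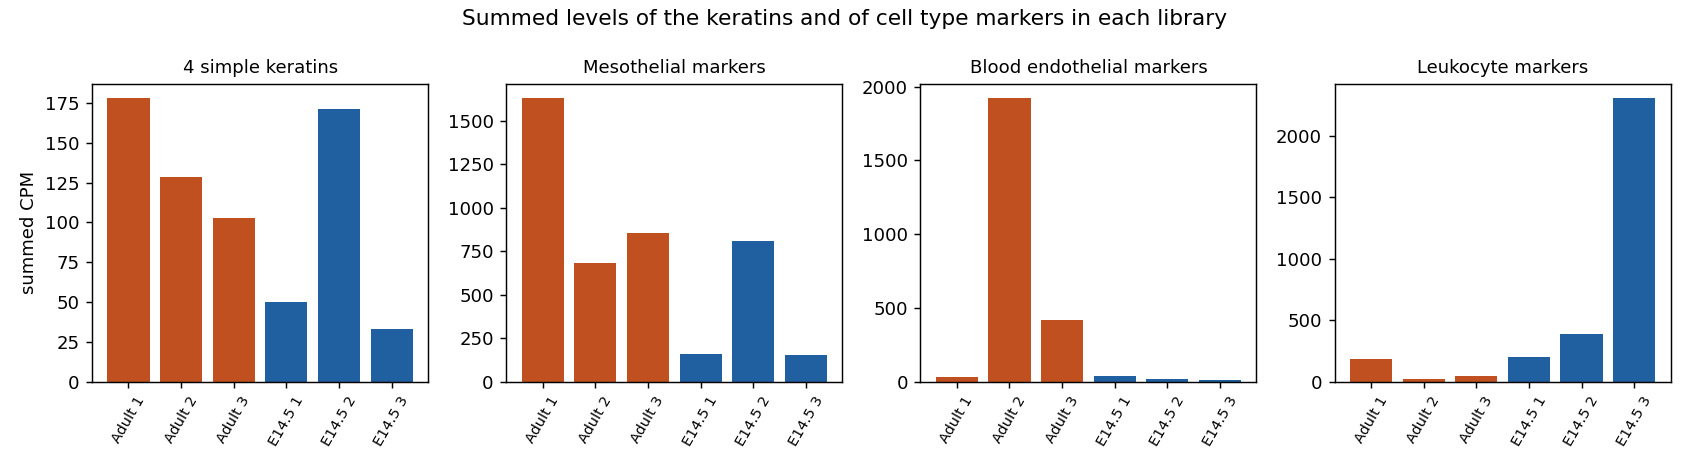
Summed CPM of the 4 keratins and of mesothelial, blood endothelial and leukocyte markers in each library, with adult libraries in orange and E14.5 libraries in blue, on linear axes from 0. Keratins and mesothelial markers are both low in E14.5 replicates 1 and 3, at 49.8 and 33.3 CPM and at 158 and 153 CPM, while endothelial markers peak in adult replicate 2 and leukocyte markers in E14.5 replicate 3.

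Within the E14.5 group Dsp and the leukocyte markers peaked in different libraries. E14.5 replicate 3, with 2312 CPM of leukocyte markers, had 74.6 CPM of Dsp, against 181 CPM in E14.5 replicate 1 with 196 CPM of these markers. Adult replicate 2, with 1924 CPM of endothelial markers, had the highest adult Dsp level, and adult replicate 3, with 420.5 CPM, the lowest. Without adult replicate 2 and E14.5 replicate 3, a setting added after the data were seen, the log2 fold change of Dsp was -4.88. The part of leukocytes and endothelial cells in the Dsp levels was not tested.

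The other desmosome genes, many of them known from stratified epithelium, were scarce apart from Perp. Dsg1b had 0 counts in all 6 libraries, and Dsg1a, Dsg1c, Dsg3 and Dsc1 had at most 4 counts in any. Dsg4 had 0, 1 and 0 counts in adult and 11, 19 and 3 counts in E14.5 libraries, and Dsc3 had 0, 0 and 2 counts in adult and 12, 5 and 7 counts in E14.5 libraries. Of the 10 genes in this list, 3 were tested and 0 passed the edgeR test (2 at an unadjusted p under 0.05). Perp, which encodes a membrane protein of desmosomes that is induced by p53, measured 166, 51.7 and 134 CPM in adult and 303, 444 and 193 CPM in E14.5 libraries, without overlap (log2 fold change -1.42, SE 0.49, adjusted p = 0.210, edgeR). Pkp1, a plakophilin gene of skin, measured 0.416, 4.17 and 0.984 CPM in adult and 0.0938, 0.590 and 0.0618 CPM in E14.5 libraries (adjusted p = 0.277). Its highest library was adult replicate 2, that with the most endothelial marker counts. Pkp3, another epithelial plakophilin gene, had 9, 0 and 6 counts in adult and 11, 42 and 13 counts in E14.5 libraries (adjusted p = 0.417).

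Of 46 other keratin genes with a row, 24 had 0 counts in every library, and 4 were abundant enough to test. None of the 4 passed the edgeR test, with 1 at an unadjusted p under 0.05. That one was Krt20, the keratin of differentiated intestinal epithelium, which measured 13.4, 9.09 and 13.7 CPM in adult and 61.4, 47.0 and 24.4 CPM in E14.5 libraries, without overlap (log2 fold change -1.87, SE 0.37, adjusted p = 0.0833, edgeR). Its order among the E14.5 libraries was that of Jup, Pkp2 and Dsg2, but neither that of Dsp nor that of the keratins of the set. Krt80 measured 3.80 to 5.72 CPM in adult and 5.82 to 9.77 CPM in E14.5 libraries, and Krt10 measured 1.36 to 1.44 CPM in adult and 0.907 to 1.33 CPM in E14.5 libraries. Krt14 measured 0.914 to 4.85 CPM in adult and 0.876 to 1.61 CPM in E14.5 libraries.

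Other plakins belong to the cytolinker family of desmoplakin. All 6 listed were tested, 0 passed in edgeR (2 at an unadjusted p under 0.05), and 5 had a positive log2 fold change, adult over E14.5, with a median of 0.38. Plec, the plectin gene, measured 560, 358 and 525 CPM in adult and 397, 460 and 261 CPM in E14.5 libraries. Dst, for dystonin, measured 436 to 498 CPM in adult and 323 to 394 CPM in E14.5 libraries (log2 fold change 0.39, SE 0.13, adjusted p = 0.198, edgeR). Macf1, for a linker of actin and microtubules, measured 583 to 598 CPM in adult and 426 to 558 CPM in E14.5 libraries. Ppl and Evpl, for periplakin and envoplakin of the cornified envelope, measured 1.89 to 3.26 CPM and 0.447 to 3.71 CPM in adult libraries and 0.494 to 1.58 CPM and 0.500 to 1.15 CPM in E14.5 libraries. Eppk1, for epiplakin, measured 0.397 to 0.984 CPM in adult and 0.155 to 1.75 CPM in E14.5 libraries.

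The filaments and catenins of mesenchymal cells were abundant in both groups. Of 5 tested intermediate filament genes other than keratins, 0 passed the edgeR test (2 at an unadjusted p under 0.05). Vim, for vimentin, measured 3493, 3049 and 3918 CPM in adult and 3365, 3698 and 3266 CPM in E14.5 libraries. Des, for the muscle filament protein desmin, measured 1023, 236 and 811 CPM in adult and 2158, 2625 and 1722 CPM in E14.5 libraries, without overlap (log2 fold change -1.65, SE 0.53, adjusted p = 0.177, edgeR). Of 7 tested catenin genes, 0 passed (2 at an unadjusted p under 0.05). Ctnnb1, for β-catenin, the closest relative of plakoglobin, measured 720, 818 and 729 CPM in adult and 848, 750 and 718 CPM in E14.5 libraries. Ctnnd1, for p120-catenin, measured 717 to 753 CPM in adult and 466 to 646 CPM in E14.5 libraries (adjusted p = 0.195).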

How the data were processed

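Polyadenylated RNA of 6 cultures was sequenced from single ends over 75 bp with stranded libraries, per the labels' protocols. Reads were aligned with STAR to mm10, per the submitters' processing notes; version and annotation: not given in the sources used here. Every deposited table holds raw counts by gene in 3 columns, which the layout of STAR gene counts identifies as unstranded, forward and reverse. The reverse column was used, since the forward one held 1.33% to 1.69% of stranded gene counts. The 4 rows that name no gene held 17.45% to 19.81% of reads and were left out. They include reads with several alignments, and Krt8 has an annotated pseudogene, so its level is less certain.

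Genes were kept by filterByExpr, scaled by TMM and tested over all genes with the quasi-likelihood test of edgeR 4.0.16 in R 4.3.3, adult over E14.5, with Benjamini-Hochberg adjustment at 0.05. The SE is the log2 fold change divided by the square root of F. An exact permutation test of 3 against 3 libraries cannot go below p = 0.1 and was not used for single values. Replicates are numbered in accession order, and no pair of libraries agreed within sampling noise. Profiles used log2 CPM with 2 counts added. The fit was tested on simulated data. Positions and exon lengths come from GENCODE M21 (GRCm38, the build of mm10). The members and gene lists were chosen with earlier results of these data known. Named were all members, every tested gene of the desmosome, keratin and plakin lists, called genes and the 2 most abundant of the other lists, and the 5 genes nearest to Dsp, plus defining epithelial markers and those stated to be chosen later. Marker lists for lymphatic endothelium and interstitial cells of Cajal were also summed. Alternatives were other scalings and filters, DESeq2 1.42.0, limma-voom in limma 3.58.1, the title prefix as a block, unstranded counts and leaving out libraries.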

Additional observations from a re-analysis of the deposited data

How the results depend on the processing

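The number of genes called, 146, was 127 to 149 under the other scalings and filters, with limma-voom and with unstranded counts. It was 1427 with DESeq2, 2 with the title prefix as a replicate block, 3 to 471 when 1 library was left out (38, 46 and 3 without adult replicate 1, 2 or 3, and 3 and 471 without E14.5 replicate 1 or 2), and 36 without adult replicate 2 and E14.5 replicate 3, a setting added after the data were seen. The number of the 10 genes called was 1 (Dsp, on the contrast it was chosen for), 2 with DESeq2 (Dsp and Dsg2), 0 with limma-voom, 0 with the replicate block, 0 to 2 when 1 library was left out and 0 in the added setting. It was 0 without adult replicate 1, 2 or 3 or E14.5 replicate 1, and 2 without E14.5 replicate 2 (Dsp and Krt7). Over the 16 alternatives the log2 fold change of Dsp lay between -4.88 and -3.67. Krt8 ranged between -0.29, with adult replicate 1 left out, and 1.61, with E14.5 replicate 2 left out, and no other of the 10 genes changed sign in any alternative. With the stricter filter of 1 CPM in 3 libraries Dsc2 was not tested. Libraries that share a title prefix did not deviate together, with correlations of -0.137, -0.238 and -0.102 over genes, and no library correlated best with that of its own prefix. Depth limits Dsg2 and Dsc2, with 44 and 15 counts over the adult libraries. Both entered the main test only through the E14.5 libraries, so the DESeq2 call of Dsg2 was partly fixed by the filter.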

Other observations

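Tight junctions seal epithelia next to the desmosomes. Of 9 tested tight junction genes, 0 passed the edgeR test (4 at an unadjusted p under 0.05, against 17.9% of all tested genes). Tjp1, for the scaffold ZO-1, measured 132, 153 and 131 CPM in adult and 187, 181 and 175 CPM in E14.5 libraries, without overlap (log2 fold change -0.38, SE 0.11, adjusted p = 0.149, edgeR). F11r, for the adhesion molecule JAM-A, measured 179, 119 and 128 CPM in adult and 132, 254 and 112 CPM in E14.5 libraries. Among the E14.5 libraries it peaked in replicate 2, like the keratins of the set. Cldn15 and Cldn1, claudin genes named after their values were seen, stood on opposite sides, with 5.03 to 13.8 CPM in adult and 0.282 to 0.993 CPM in E14.5 libraries for Cldn15, and 0.379 to 2.14 CPM in adult and 3.35 to 11.6 CPM in E14.5 libraries for Cldn1.

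Repressors of epithelial genes from the Snail, Zeb and Twist families had positive log2 fold changes, adult over E14.5, in 6 of 6 tested genes, against 48.5% of all tested genes. Of the 6, 0 passed the edgeR test (2 at an unadjusted p under 0.05, against 17.9% of all). Summed, they measured 303, 272 and 297 CPM in adult and 217, 203 and 201 CPM in E14.5 libraries. Zeb1 measured 115 to 131 CPM in adult and 67.5 to 116 CPM in E14.5 libraries, and Zeb2 measured 90.8 to 99.5 CPM in adult and 58.8 to 104 CPM in E14.5 libraries. Snai1, named after its values were seen, measured 49.9, 24.2 and 44.8 CPM in adult and 16.7, 15.2 and 11.7 CPM in E14.5 libraries (log2 fold change 1.45, SE 0.30, adjusted p = 0.0943, edgeR). Twist2, also named after its values were seen, measured 3.43 to 7.53 CPM in adult and 0.15 to 0.72 CPM in E14.5 libraries (log2 fold change 4.02, SE 0.74, adjusted p = 0.073, edgeR). In Snai2, Zeb1, Zeb2 and Twist1 the groups overlapped. Of 4 tested activators or splicing regulators of epithelial genes, 0 passed (3 at an unadjusted p under 0.05). Klf5 measured 3.03 to 9.12 CPM in adult and 10.1 to 15.9 CPM in E14.5 libraries, and Esrp2 measured 5.66 to 10.3 CPM in adult and 1.82 to 16.9 CPM in E14.5 libraries.

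Of the fibroblast markers, Pdgfra, for the receptor of PDGF-A, was the 1 gene past the edgeR test in any list set beside the desmosome and keratin genes. It measured 29.5, 81.0 and 31.7 CPM in adult and 2.47, 3.85 and 4.45 CPM in E14.5 libraries (log2 fold change 3.72, SE 0.50, adjusted p = 0.0361). Markers of lymphatic endothelium (led by Flt4 and Prox1) summed to 2.42 to 26.5 CPM in adult and 3.99 to 6.004 CPM in E14.5 libraries, and those of interstitial cells of Cajal (Ano1 and Kit) to 2.499 to 19.8 CPM in adult and 1.33 to 7.32 CPM in E14.5 libraries.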
